A study of Mus musculus with 4 samples.

Results

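Metallothioneins are small cysteine-rich proteins that bind zinc and copper, and together with a sensor, an importer and an exporter of zinc they form the group of 5 genes described here: Mt1, Mt2, Mtf1, Slc39a14 and Slc30a1. The genes were taken by symbol from a table of 23284 genes, and all 5 were present in each library. They were selected on their FPKM levels and their ratios by LPS and by genotype in these same 4 libraries, so those values are given as a description, without a test. RNA was sequenced from mouse bone marrow-derived macrophages, which are grown in culture from bone marrow progenitors, in 4 groups of 1 library each: Spic-/- cells with LPS, control (Spic+/+) cells with LPS, Spic-/- cells without LPS and control cells without LPS. Lipopolysaccharide (LPS), a component of the bacterial outer membrane that Toll-like receptor 4 recognises, was given at 100 ng/ml for 4 h. All cultures, controls included, had first been kept for 18 h with hemin, in which the iron of heme is oxidised. The series design and the treatment protocol give 40 µM hemin, the sample descriptions the same number in mM. The design holds no culture without hemin, and no difference between hemin and no hemin can be read from it. The sample titles write the knockout as cKO, the labels name no Cre driver or allele, and the sources used here state neither the age of the animals nor how many animals gave each culture.

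Free zinc in the cell is kept low. MTF-1, the zinc-finger transcription factor encoded by Mtf1, binds DNA when zinc is available, at short metal response elements, and turns on the metallothionein genes and the zinc exporter gene Slc30a1. Transporters of the Slc39 (ZIP) family bring zinc into the cytosol, and those of the Slc30 (ZnT) family move it out of the cytosol, across the plasma membrane or into organelles. In mouse liver, metallothioneins and the importer gene Slc39a14 are known as genes of the acute-phase response, which inflammatory cytokines drive.

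Spic, which encodes the Ets-family factor Spi-C and was the gene targeted, stood at 80.8 FPKM in Spic-/- cells and 406 FPKM in control cells with LPS, and at 14.98 FPKM in Spic-/- cells and 53.1 FPKM in control cells without LPS. It was lower but still detected in the libraries labelled Spic-/-, and gene-level values do not show which exons those fragments came from. FPKM is the number of fragments per kilobase of transcript, scaled for library size by the authors. Depth recovered from the steps between low values put 1 FPKM at 8.05 fragments per kilobase in the shallowest library and 15.6 in the deepest. The 7 macrophage markers, such as Csf1r and Cd68, were above 0 in every library. Markers of B, T, erythroid, mast and dendritic cells were each under 1 FPKM in every library, and the 5 neutrophil markers measured summed to at most 8.20 FPKM. The median log2 ratio of (FPKM + 1) over all genes with 5 FPKM or more in either library compared was 0.12 for LPS in Spic-/- cells and 0.11 for LPS in control cells. Scaling the libraries by upper quartiles put it at −0.06 in Spic-/- cells and −0.07 in control cells. Among genes at least 2-fold apart, the share that was higher with LPS was 63.9% in Spic-/- cells and 65.5% in control cells as deposited, and 51.3% in Spic-/- cells and 52.9% in control cells under that scaling. For Spic-/- over control with LPS it was 55.2% as deposited and 44.6% under that scaling.

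Both metallothionein genes were higher with LPS in both genotypes, but to very different degrees. Mt1 stood at 216 FPKM with LPS and 81.9 FPKM without LPS in Spic-/- cells, and at 322 FPKM with LPS and 99.8 FPKM without LPS in control cells. The 2 libraries with LPS were thus above the 2 without in this gene. The ratio of LPS to no LPS was 2.64 in Spic-/- cells (95% counting interval 2.31 to 3.02) and 3.22 in control cells (2.90 to 3.58). These intervals are exact (Clopper-Pearson) and hold for counting error alone, since each group is 1 library. Mt2 stood at 177 FPKM with LPS and 4.66 FPKM without LPS in Spic-/- cells, and at 305 FPKM with LPS and 7.91 FPKM without LPS in control cells. Its ratio was 37.97 in Spic-/- cells (24.6 to 61.9) and 38.6 in control cells (28.5 to 53.6). The values without LPS rested on 21 fragments in Spic-/- cells and 43 in control cells, and those with LPS on 497 fragments in Spic-/- cells and 1126 in control cells. Mt2 overlaps an antisense gene on the opposite strand, Gm45774 (94170748 to 94173412), for which the deposited values hold no level. Whether fragments were counted by strand is not stated, and the value of Mt2 is uncertain to that extent.

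The balance of this pair of genes differed between the LPS states. Without LPS, the FPKM of Mt1 was 17.6 times that of Mt2 in Spic-/- cells (11.3 to 28.7) and 12.6 times in control cells (9.24 to 17.7). With LPS the same quotient was 1.22 in Spic-/- cells (1.08 to 1.38) and 1.05 in control cells (0.970 to 1.15). Mt2 thus made up 45.0% of the summed metallothionein FPKM in Spic-/- cells and 48.7% in control cells with LPS, and 5.39% in Spic-/- cells and 7.34% in control cells without LPS. The summed FPKM of both genes was 393 with LPS and 86.6 without LPS in Spic-/- cells, and 627 with LPS and 108 without LPS in control cells. The transcripts are short, and FPKM of short transcripts depends on the length that the authors' software assigned, which enters the quotient of both genes but cancels in the ratio of 1 gene between libraries. Of the other metallothionein genes, Mt3 reached at most 1.14 FPKM and Mt4 was listed at 0 in every library.

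**Figure D1:**
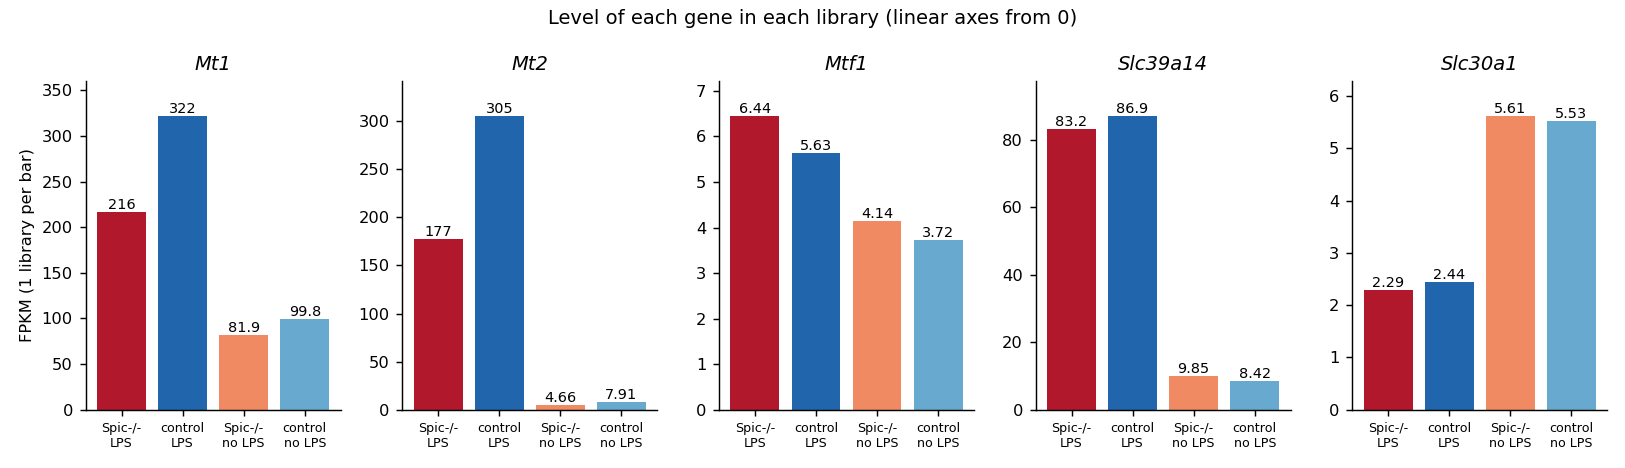
Levels of the 5 genes in FPKM, 1 bar per library, on linear axes that start at 0 and differ between genes; there are no replicates and hence no error bars. Mt1, Mt2, Mtf1 and Slc39a14 are higher in both libraries with LPS, Slc30a1 is lower in both, and Mt1 and Mt2 are lower in Spic-/- than in control cells at each LPS state.

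The sequences before the starts of both metallothionein genes are shown because the genes lie side by side and differed with LPS to such unequal degrees. Mt2 (ENSMUSG00000031762.7) lies on chromosome 8 at 94172664 to 94173568 and Mt1 (ENSMUSG00000031765.8) at 94179082 to 94180327 (GENCODE annotation, GRCm38), both on the plus strand with 5513 bases between them. The 250 bases before the RefSeq transcript starts (GRCm38.p6, plus strand, chr8:94178839-94179088 for Mt1 and chr8:94172368-94172617 for Mt2) and the first 30 bases after them read as follows, with matches to the metal response element core in capitals.
Mt1 before the start: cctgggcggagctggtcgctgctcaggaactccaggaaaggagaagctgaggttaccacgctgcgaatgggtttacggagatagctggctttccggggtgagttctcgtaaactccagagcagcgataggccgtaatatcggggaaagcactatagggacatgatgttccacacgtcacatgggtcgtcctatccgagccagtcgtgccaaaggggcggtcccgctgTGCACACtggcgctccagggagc
Mt1 after the start: tcTGCACTCcgcccgaaaagTGCGCTCggc
Mt2 before the start: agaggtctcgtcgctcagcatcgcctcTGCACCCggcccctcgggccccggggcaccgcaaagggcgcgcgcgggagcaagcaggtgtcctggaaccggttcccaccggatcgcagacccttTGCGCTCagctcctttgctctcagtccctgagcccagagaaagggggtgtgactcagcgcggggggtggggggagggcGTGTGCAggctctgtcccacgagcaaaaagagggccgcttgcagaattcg
Mt2 after the start: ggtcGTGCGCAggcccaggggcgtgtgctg
The core was searched on both strands as TGCACNC or TGCGCNC in the 250 bases before and 50 bases after the start. Mt1 held 3 matches, at −23 to −17, 3 to 9 and 21 to 27, counted from the start. Mt2 held 4 matches, at −223 to −217, −128 to −122, −50 to −44 and 5 to 11, the last pair of them on the opposite strand. The annotations differ in the start of Mt2: the first base after the RefSeq start is 94172618, and the GENCODE gene begins at 94172664. The 30 bases shown after the start of Mt2, with the match at 5 to 11, thus lie before the GENCODE gene. Of 32851 promoter windows of the same length, 25.7% held at least 1 match, 1.31% at least 3 and 0.295% at least 4. The core of the antioxidant response element, TGACNNNGC, which NRF2 and its partners bind, had 1 match in the window of Mt2, at −79 to −71. It had none in the window of Mt1, and 12.4% of windows held it. A 7-letter Ets core, AGGAAGT, had no match in either window, and 9.35% of windows held it. Other Ets-type sequences were not searched. No match overlapped another in these windows. A match describes the letters of the window and does not show that a factor binds there. Bases beyond each window were not searched, and Mt1 has 3 annotated transcripts and Mt2 has 2. Elements near a transcript start further downstream, past 50 bases after the start used, would have been missed. A lack of matches in a window is therefore not a lack of such elements at the gene. The difference in matches between Mt1 and Mt2 thus holds for these windows only and depends on the start used.

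**Figure D2:**
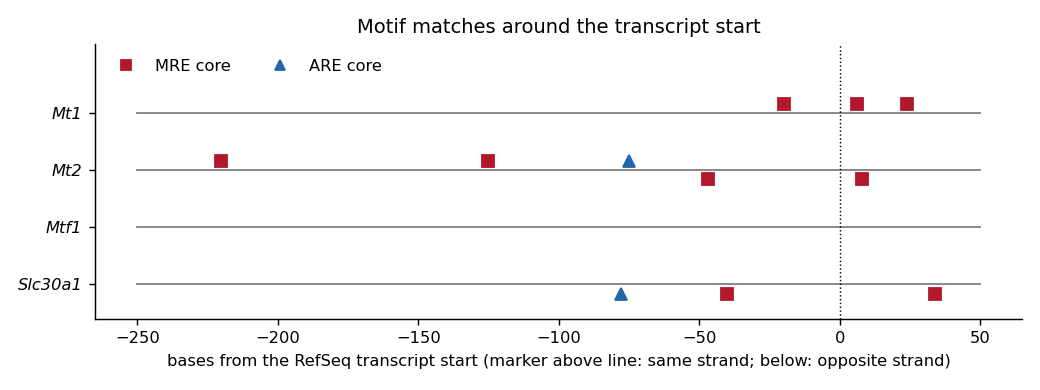
Matches to the metal response element (MRE) core and the antioxidant response element (ARE) core in the windows of 250 bases before to 50 bases after the RefSeq start, with distance from the start in bases on the x axis and 1 line per gene. Mt1 has 3 MRE matches, Mt2 has 4 MRE matches and 1 ARE match, Slc30a1 has 2 MRE matches and 1 ARE match, and Mtf1 has none.

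Both metallothionein genes were lower in Spic-/- than in control cells in each LPS state, by less than 2-fold. With LPS, Mt2 in Spic-/- cells was 0.580 of control (counting interval 0.521 to 0.645), and 59 of 7509 genes had a lower log2 ratio of (FPKM + 1). Mt1 with LPS was 0.673 of control (0.608 to 0.744), with 140 genes lower. Without LPS, Mt1 was 0.821 of control (0.715 to 0.941) and Mt2 0.590 of control, and the interval of Mt2, 0.333 to 1.02, includes 1. None of the 5 genes was at least 2-fold apart between genotypes, where the background was 0.892% of 7509 genes with LPS and 0.902% of 7762 genes without LPS. Stromal and smooth muscle markers differed between the same libraries in the same direction. Their 9 genes summed to 372 FPKM in Spic-/- cells and 648 FPKM in control cells with LPS, and to 326 FPKM in Spic-/- cells and 626 FPKM in control cells without LPS. Of the 8 stromal markers that reached 1 FPKM, 7 were below 0 in each genotype comparison, and none was listed at 0 in any library. The macrophage marker Lyz2 was also lower in Spic-/- cells, at log2 ratios of −0.72 with LPS and −0.66 without LPS. Of the 7 macrophage markers, 6 were above 0 with LPS and 5 without LPS, where the median of all genes was 0.09 with LPS and 0.07 without LPS. The part of stromal and smooth muscle cells in the genotype difference of Mt1 and Mt2 was not tested. Fewer cells of a type and less RNA per cell cannot be told apart in bulk samples.

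Mtf1, the gene of the zinc-sensing factor itself, was a low-level gene with a small difference by LPS. It stood at 6.44 FPKM with LPS and 4.14 FPKM without LPS in Spic-/- cells, and at 5.63 FPKM with LPS and 3.72 FPKM without LPS in control cells. The 2 libraries with LPS were above the 2 without, by a ratio of 1.56 in Spic-/- cells (1.35 to 1.79) and 1.51 in control cells (1.32 to 1.73), short of 2-fold. Spic-/- cells were at 1.15 of control with LPS (0.996 to 1.32) and at 1.11 of control without LPS (0.969 to 1.28), and both intervals include 1. In the comparison of genotypes, Mtf1 without LPS and Slc30a1 with LPS did not reach the minimum of 5 FPKM, and the other 4 genes did each time. It (ENSMUSG00000028890.13) lies on chromosome 4 at 124802104 to 124849800 on the plus strand. Its end overlaps 1110065P20Rik on the opposite strand, which stood at 7.32 to 13.4 FPKM. The sources used here do not state whether fragments were counted by strand, and the value of Mtf1 is uncertain to that extent.

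Slc39a14, which encodes the importer ZIP14 of zinc, non-transferrin-bound iron and manganese, had the second-largest LPS ratio of the 5. It stood at 83.2 FPKM with LPS and 9.85 FPKM without LPS in Spic-/- cells, and at 86.9 FPKM with LPS and 8.42 FPKM without LPS in control cells. The 2 libraries of each LPS state lay close together and far from the other 2. The ratio of LPS to no LPS was 8.45 in Spic-/- cells (7.36 to 9.74) and 10.3 in control cells (9.03 to 11.8). Only 231 of 8098 genes in Spic-/- cells and 179 of 8050 in control cells had a higher log2 ratio. Between genotypes Slc39a14 was at 0.958 with LPS (0.890 to 1.03) and at 1.17 without LPS (0.976 to 1.40), each with an interval that includes 1. The gene (ENSMUSG00000022094.15) lies on chromosome 14 at 70303469 to 70351425 on the minus strand, with 13 annotated transcripts that the gene-level values do not separate.

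Slc30a1, which encodes the plasma membrane zinc exporter ZnT1, was the only one of the 5 that was lower with LPS. It stood at 2.29 FPKM with LPS and 5.61 FPKM without LPS in Spic-/- cells, and at 2.44 FPKM with LPS and 5.53 FPKM without LPS in control cells. Both genotypes gave nearly the same values at each LPS state. The ratio of LPS to no LPS was 0.409 in Spic-/- cells (0.322 to 0.515) and 0.442 in control cells (0.360 to 0.538). On the log2 scale of (FPKM + 1), which understates the change of low genes, this was −1.01 in Spic-/- cells and −0.92 in control cells, on either side of the 2-fold line. With a pseudocount of 0.1 FPKM the log2 ratios were −1.25 in Spic-/- cells and −1.15 in control cells. Spic-/- cells were at 0.940 of control with LPS (0.713 to 1.24) and at 1.02 of control without LPS (0.881 to 1.17). The values rested on 93 fragments with LPS and 365 without LPS in Spic-/- cells, and on 130 with LPS and 434 without LPS in control cells. The antisense gene 1700034H15Rik, which overlaps its start, stood at no more than 0.0558 FPKM.

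The promoter of Slc30a1 is shown because this gene, like the metallothionein genes, is a known MTF-1 target, yet was lower with LPS while they were higher. The gene (ENSMUSG00000037434.7) lies on chromosome 1 at 191906767 to 191913247 on the plus strand, and the 250 bases before its RefSeq start (GRCm38.p6, chr1:191906531-191906780, plus strand) read as follows, with the match to the metal response element core in capitals.
Slc30a1 before the start: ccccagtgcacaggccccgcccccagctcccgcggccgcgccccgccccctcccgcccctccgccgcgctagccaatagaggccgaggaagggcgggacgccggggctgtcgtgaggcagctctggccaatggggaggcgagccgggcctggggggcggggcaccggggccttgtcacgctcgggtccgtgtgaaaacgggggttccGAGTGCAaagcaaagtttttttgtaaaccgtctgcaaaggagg
The window of 250 bases before to 50 bases after the start held 2 matches to that core, at −43 to −37 and 31 to 37, both on the opposite strand, and 1 match to the antioxidant response element core at −82 to −74. At least 2 matches to the metal response element core were present in 6.14% of windows. The window of Mtf1 held no match to these cores or to AGGAAGT, the only Ets-type sequence searched. That window begins at 124802299, inside the GENCODE gene, which begins at 124802104. Bases before the GENCODE start of Mtf1 were not searched. Promoter sequences of 4 of the 5 genes were matched by symbol in RefSeq, and Slc39a14 was the remaining one.

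**Figure D3:**
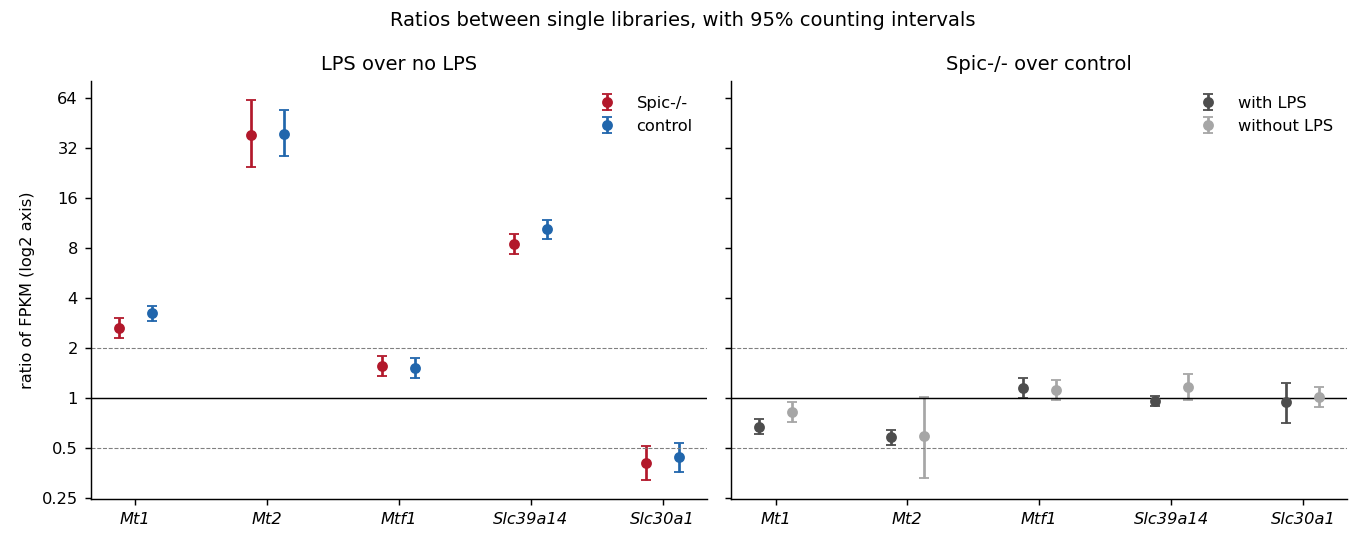
Ratios of FPKM between single libraries on a log2 axis, for LPS over no LPS in each genotype (left) and for Spic-/- over control at each LPS state (right); points are ratios, bars are 95% counting intervals, and dashed lines mark 2-fold. LPS ratios run from 0.409 for Slc30a1 to 38.6 for Mt2, and genotype ratios from 0.580 for Mt2 to 1.17 for Slc39a14.

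Counted at 2-fold on the scale of log2(FPKM + 1), 3 of the 5 genes (Mt1, Mt2 and Slc39a14) were higher with LPS in each genotype, as were 13.7% of 8098 genes in Spic-/- cells and 12.3% of 8050 genes in control cells. Slc30a1 was counted as lower in Spic-/- cells, as were 7.74% of genes, but not in control cells, where 6.5% of genes were, and both calls turn with the pseudocount or the scaling. Since the genes were picked with their LPS response known, nothing is read from these counts. The log2 ratios with LPS were 1.39 in Spic-/- cells and 1.68 in control cells for Mt1. They were 4.97 in Spic-/- cells and 5.10 in control cells for Mt2, 0.53 in Spic-/- cells and 0.49 in control cells for Mtf1, and 2.96 in Spic-/- cells and 3.22 in control cells for Slc39a14. The difference of the responses, Spic-/- minus control, was −0.29 for Mt1, −0.13 for Mt2, 0.04 for Mtf1, −0.27 for Slc39a14 and −0.08 for Slc30a1. Each of these lay within the central 95% of 8272 genes, −0.49 to 0.47. With 1 library per group this difference has no error of its own and was not tested.

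**Figure D4:**
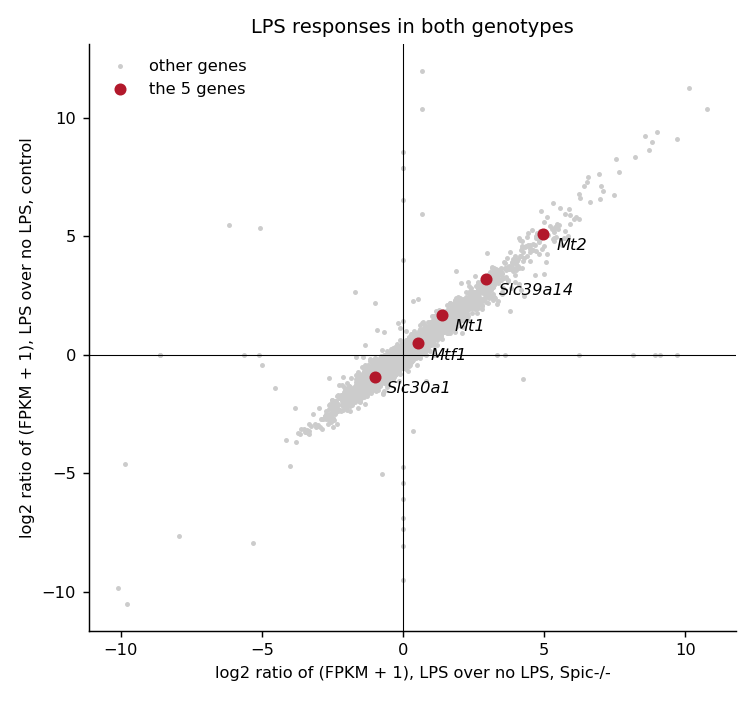
Log2 ratios of (FPKM + 1) for LPS over no LPS in Spic-/- cells (x axis) and control cells (y axis), for 8272 genes in grey and the 5 genes in red. The 5 genes lie along the cloud of the other genes, from Slc30a1, at −1.01 in Spic-/- cells and −0.92 in control cells, to Mt2, at 4.97 in Spic-/- cells and 5.10 in control cells.

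Of the zinc importer family, 11 of 14 genes reached 1 FPKM in at least 1 library, and on the scale of log2(FPKM + 1) Slc39a14 was the only one of them at least 2-fold apart with LPS. Of all genes tested, 13.7% were higher and 7.74% lower by 2-fold or more in Spic-/- cells, and 12.3% higher and 6.5% lower in control cells. Slc39a14 was picked with its LPS response known, so the count is not read as a trait of the family. The median log2 ratio over the 11 importers was 0.15 in Spic-/- cells and 0.11 in control cells, close to the medians of all genes. Slc39a1, which encodes the plasma membrane importer ZIP1, was the most abundant: 156 FPKM with LPS and 77.8 FPKM without LPS in Spic-/- cells, and 120 FPKM with LPS and 66.4 FPKM without LPS in control cells. Its log2 ratios of (FPKM + 1) were 0.996 in Spic-/- cells and 0.84 in control cells, just under 2-fold on that scale. Slc39a7, which encodes the importer ZIP7 that releases zinc from the endoplasmic reticulum, stood at 89.5 FPKM with LPS and 63.7 FPKM without LPS in Spic-/- cells, and at 76.0 FPKM with LPS and 65.5 FPKM without LPS in control cells. Slc39a10, reported in mouse as a gene that MTF-1 represses, stood at 7.40 FPKM with LPS and 12.8 FPKM without LPS in Spic-/- cells, and at 7.52 FPKM with LPS and 9.85 FPKM without LPS in control cells. Slc39a8, which encodes ZIP8, the closest relative of ZIP14, was low in all libraries, at 1.57 to 2.66 FPKM. The remaining detected importers, Slc39a3, Slc39a4, Slc39a6, Slc39a9, Slc39a11 and Slc39a13, had log2 ratios from −0.49 to 0.67.

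Of the exporter family, 6 of 10 genes reached 1 FPKM, and 4 of the 6 were above 0 with LPS in each genotype. The median of all genes was itself above 0, at 0.12 in Spic-/- cells and 0.11 in control cells, so nothing is read from this count. Slc30a6, whose product carries zinc into the Golgi and works with that of Slc30a5, stood at 18.5 FPKM with LPS and 8.01 FPKM without LPS in Spic-/- cells, and at 17.2 FPKM with LPS and 8.31 FPKM without LPS in control cells. Its log2 ratios, 1.11 in Spic-/- cells and 0.97 in control cells, were on either side of 2-fold. Slc30a5 itself was at −0.10 in Spic-/- cells and −0.12 in control cells. Slc30a4, the gene of a transporter of endosomal vesicles, was at 0.62 in Spic-/- cells and 0.91 in control cells. Slc30a7 was at 0.53 in Spic-/- cells and 0.35 in control cells, and Slc30a9 was at 0.51 in Spic-/- cells and 0.34 in control cells. Slc30a1 and Slc30a5 were the 2 exporters below 0. Slc30a2, Slc30a8 and Slc30a10 were listed at 0 in every library. No gene of either family was at least 2-fold apart between genotypes, where only 0.892% of all genes tested with LPS and 0.902% without LPS were. The importers had a median log2 ratio of Spic-/- to control of 0.20 with LPS and 0.20 without LPS, and the exporters of 0.06 with LPS and −0.02 without LPS. All genes had 0.09 with LPS and 0.07 without LPS.

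**Figure D5:**
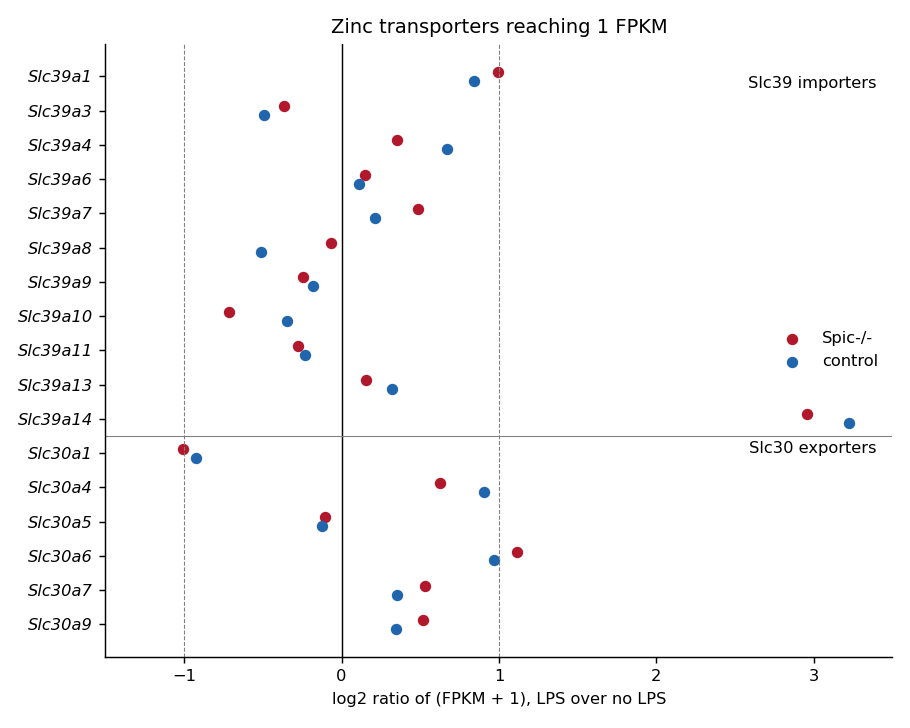
Log2 ratios of (FPKM + 1), LPS over no LPS, for the 17 zinc transporter genes that reached 1 FPKM, with Spic-/- cells in red and control cells in blue; dashed lines mark 2-fold. Slc39a14 lies at 2.96 in Spic-/- cells and 3.22 in control cells, Slc30a1 at −1.01 in Spic-/- cells and −0.92 in control cells, and the others between −0.72 and 1.11.

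The list of genes reported elsewhere as targets of MTF-1 in mouse cells holds 8 genes, among them Mt1, Mt2 and Slc30a1, and mixes genes that MTF-1 activates with Slc39a10, which it is reported to repress. With LPS, 5 of the 8 were above 0 and 3 below in each genotype. In each genotype 3 were 2-fold higher or more, 2 of which are Mt1 and Mt2 themselves, where 13.7% of genes tested in Spic-/- cells and 12.3% in control cells were. The median log2 ratio of the list was 0.55 in Spic-/- cells and 0.50 in control cells. That of all genes was also above 0, at 0.12 in Spic-/- cells and 0.11 in control cells. The third gene was Ndrg1, a gene also known from hypoxia, at 15.3 FPKM with LPS and 5.13 FPKM without LPS in Spic-/- cells, and at 14.9 FPKM with LPS and 5.03 FPKM without LPS in control cells. Between genotypes none of the 8 was at least 2-fold apart, where only 0.892% of all genes tested with LPS and 0.902% without LPS were. Of 8 detected genes of copper handling, a metal that metallothioneins also bind, 2 were higher by 2-fold or more with LPS in each genotype, against the same 13.7% of genes tested in Spic-/- cells and 12.3% in control cells. Slc31a2, which encodes a low-affinity copper transporter of endosomes, stood at 255 FPKM with LPS and 66.9 FPKM without LPS in Spic-/- cells, and at 219 FPKM with LPS and 50.03 FPKM without LPS in control cells. Slc31a1, the gene of the copper importer CTR1, stood at 58.8 FPKM with LPS and 20.4 FPKM without LPS in Spic-/- cells, and at 49.8 FPKM with LPS and 19.1 FPKM without LPS in control cells. Cox17, the gene of a copper chaperone of mitochondria, was at 0.80 in Spic-/- cells and 0.84 in control cells on the log2 scale, and Atp7a, the gene of a copper-exporting ATPase, at 0.62 in Spic-/- cells and 0.28 in control cells. The median of the copper list was 0.31 in Spic-/- cells and 0.21 in control cells. No gene in it was at least 2-fold apart between genotypes, against the same 0.892% of all genes with LPS and 0.902% without LPS.

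Genes whose levels followed those of the 5 most closely were found by the Euclidean distance of centred log2(FPKM + 1) over the 4 libraries, among 7134 genes with a mean of at least 5 FPKM. Nearest to Mt1 were Ugcg, the glucosylceramide synthase gene (distance 0.23), the metalloproteinase inhibitor gene Timp3 (0.23) and March1, a ubiquitin ligase gene (0.26). Their log2 ratios of Spic-/- to control with and without LPS were −0.38 and −0.03 for Ugcg, −0.51 and −0.55 for Timp3, and −0.43 and 0.06 for March1. These genes were picked by closeness to Mt1 over the same libraries, so a direction shared with Mt1 is no further result. Nearest to Mt2, though at larger distances, were the chemokine gene Ccl20 (0.66), the cytokine signalling inhibitor gene Socs1 (0.73) and the TNF-family ligand gene Tnfsf9 (0.77). Nearest to Slc39a14 were the immediate-early genes Egr1 (0.09) and Ier2 (0.12) and the AP-1 family gene Jdp2 (0.14). Nearest to Mtf1 were Ash1l (0.01), Nono (0.02) and Atp9b (0.02), and nearest to Slc30a1 were Pnpla7 (0.01), Fam86 (0.04) and Cd99l2 (0.06). How many genes share each pattern was not counted, and with 4 libraries no more is read from these distances.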

How the data were processed

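Per the labels' protocols, RNeasy columns were used for the RNA and a TruSeq stranded mRNA kit for the libraries. The authors deposited FPKM, 1 file per library, and the sources used here give neither the library scaling nor the gene annotation. The submitters' processing notes name Cuffnorm 2.2.1, TopHat2 2.0.13, SAMtools 0.1.19 and Bowtie2 2.2.3 and the mm10 build, without roles or settings.

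Single libraries were compared by ratios of FPKM and by log2 ratios of (FPKM + 1), computed with Python 3.11.15, pandas 2.3.3 and SciPy 1.17.1. A gene entered the background with 5 FPKM or more in either library compared, and family genes were described from 1 FPKM. No test was run, since each group is 1 library and nothing states whether cultures were repeated. The members and gene lists were chosen with earlier results of these data known. Named were the 5 genes, detected genes of their families, up to 4 of each further list by largest ratio, and the 3 nearest patterns per gene.

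Depth relative to control without LPS, from the commonest ratio of values under 0.3 FPKM, was 51.6% in Spic-/- cells with LPS, 67.8% in control cells with LPS and 82.8% in Spic-/- cells without LPS. With these, the values of Mt1, Mt2, Mtf1 and Slc30a1 were whole fragments in all 4 libraries within a tolerance of 0.01, at a length within 20% of an annotated transcript. Fragments of Slc39a14 were estimated from a GENCODE transcript of 2098 bases, less 205 bases. Counting and depth recovery were tested on simulated data. There the search for whole fragments was given the true fragments per kilobase and gene lengths, so errors in these are not covered. Alternatives were other pseudocounts, scalings, minimums and thresholds.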

Additional observations from a re-analysis of the deposited data

Results flagged for a closer look

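Opposite directions of an effect in 2 groups, untested because each group is 1 library, were looked for among the genes that the naming rule takes. The LPS responses of Mt3 had opposite signs, −0.15 in Spic-/- cells and 0.63 in control cells on the log2 scale of (FPKM + 1), as had its genotype ratios, −0.29 with LPS and 0.48 without LPS, a difference of −0.77 in either view at no more than 1.14 FPKM. For 11 other genes the ratio of Spic-/- to control had opposite signs with and without LPS, and the ratio with LPS minus that without differed by less than 0.5 in each. It was −0.27 for Slc39a14 and −0.082 for Slc30a1. Among other importers it was −0.37 for Slc39a10, −0.32 for Slc39a4, 0.27 for Slc39a7, 0.45 for Slc39a8 and −0.069 for Slc39a9. Among exporters it was 0.14 for Slc30a6, 0.18 for Slc30a7 and 0.17 for Slc30a9, and for Atp7a it was 0.34. These differences were not tested.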

How the results depend on the processing

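Of 156 values recomputed under the alternatives, 130 shifted by less than the half-width of their counting interval or, for counts, by no more than 1.5 times, and 26 moved by more. Mt1, Mt2 and Slc39a14 were 2-fold higher or more with LPS in each genotype under both other pseudocounts and both scalings, and none of the 5 genes was 2-fold apart between genotypes under any of these. A pseudocount of 5 FPKM gave LPS log2 ratios in Spic-/- and control cells of 4.24 and 4.59 for Mt2, 0.32 and 0.28 for Mtf1, 2.57 and 2.78 for Slc39a14, and −0.54 and −0.50 for Slc30a1, as its construction shrinks low genes. Upper-quartile scaling gave 1.51 for Mt1 in control cells. The 2-fold call of Slc30a1 with LPS turned with the setting: it was −0.9997 in Spic-/- cells under median ratios, just short of 2-fold, and in control cells −1.15 with 0.1 FPKM and −1.07 under upper quartiles, past it. Under upper quartiles the genotype ratio of Slc30a1 without LPS was −0.05, against 0.02. Zinc transporters at least 2-fold apart with LPS numbered 3 in Spic-/- cells and 1 in control cells. They numbered 1 in Spic-/- cells with a pseudocount of 5 FPKM and 4 with 0.1 FPKM, and in control cells 4 with 0.1 FPKM and 2 after upper-quartile scaling. The 3 and 1 differ by Slc30a1 and Slc30a6, which lay on either side of 2-fold. Of all genes tested, 13.7% were higher and 7.74% lower with LPS in Spic-/- cells, and 12.3% higher and 6.5% lower in control cells. Nothing is read from the transporter counts. All genes at least 2-fold apart with LPS numbered 1736 in Spic-/- cells and 1515 in control cells. In Spic-/- and control cells a minimum of 20 FPKM left 1079 and 943 and a 3-fold threshold 833 and 747, and a pseudocount of 5 FPKM 1155 in Spic-/- cells. Between genotypes they numbered 67 with LPS and 70 without. With and without LPS, a pseudocount of 5 FPKM gave 43 and 40, a 3-fold threshold 29 and 33, and leaving out small RNA genes and unnamed rows 42 and 43. With LPS a minimum of 20 FPKM gave 44 and a minimum of 1 FPKM or none 106. No paired analysis was possible because each group holds 1 library, and no library could be left out.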
